A study of Mus musculus with 9 samples.

Results

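Adipoq, Retn, Cfd and Lep encode adiponectin, resistin, adipsin and leptin, proteins that adipocytes secrete into the blood. The PPARγ peaks at these genes in interscapular brown adipose tissue (iBAT) are described here over the day. A peak was taken when its centre lay in a fixed window around the gene, which was 23.11 to 23.18 Mb of chromosome 16 for Adipoq, 3.63 to 3.68 Mb of chromosome 8 for Retn, 79.88 to 79.90 Mb of chromosome 10 for Cfd and 29.04 to 29.10 Mb of chromosome 6 for Lep (mm10). This gave 26 of 66066 peaks, of which 7 are at Adipoq, 7 at Retn, 4 at Cfd and 8 at Lep. In 16 of the 26, the nearest start site of a curated RefSeq transcript belongs to the adipokine gene, and the other 10 lie nearer to a neighbouring gene.

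Adiponectin raises insulin sensitivity, and resistin was named for the insulin resistance it brings about in mice. Adipsin is complement factor D, the serine protease that activates the alternative complement pathway, and leptin reports fat stores to the hypothalamus. PPARγ, the nuclear receptor needed to form adipocytes, binds DNA together with the retinoid X receptor at DR1 elements, in which a pair of AGGTCA repeats follow each other with 1 base between them. Brown adipocytes burn lipid for heat and also secrete adipokines.

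The tissue came from male C57BL/6J mice of 10 weeks on a light and dark cycle, without genetic change or drug treatment. ZT0 is the start of the light phase and ZT12 that of the dark phase. Tissue of 8 mice according to the labels was pooled at each of 8 time points, every 3 h from ZT0 to ZT21, and chromatin of each pool was precipitated with a PPARγ antibody and sequenced as 1 library. The paper's ChIP methods also give 8 mice per pool, while its section on animals gives fewer per time point, so the size of the pools is uncertain. No time point was replicated, so the difference between mice or preparations cannot be measured, and the input library of ZT12 was not analysed here.

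The libraries held from 29572225 to 34264812 reads in peaks. For each peak, 4 values of the light phase (ZT0, ZT3, ZT6, ZT9) and 4 of the dark phase (ZT12, ZT15, ZT18, ZT21) are given in this order. A normalized count is a read count divided by the library total and its TMM factor (0.959 to 1.04), on the scale of the median total. Intervals in brackets are 95% Wilson intervals, which cover counting error only. For genes of cell types, a peak was counted only when the gene's start site was the nearest. A gene with 0 peaks may still have peaks close by that are nearest to another gene. Of 7 genes that define brown adipocytes, 6 had peaks (Prdm16 had 0), as had 6 of 6 adipocyte genes, while 0 of 3 macrophage genes, 1 of 3 skeletal muscle genes, 2 of 2 endothelial, 2 of 2 neuronal and 2 of 2 liver genes had peaks. The summed normalized count over the 90 brown adipocyte peaks ranged from 55541 to 75348 over the libraries, over the 70 adipocyte peaks from 81413 to 109252, over the 14 endothelial peaks from 3560.3 to 4598, and over the 9 neuronal peaks from 4283 to 5541. It ranged from 314 to 497 for the 1 skeletal muscle peak and from 645 to 815 for the 2 liver peaks. The part of cell composition in the values below was not tested. In whole tissue, fewer adipocytes and less PPARγ bound per adipocyte cannot be told apart. Because each count is scaled by its library's reads in peaks, a change common to all peaks does not show. Highest and lowest are thus relative to the other peaks.

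**Figure D1:**
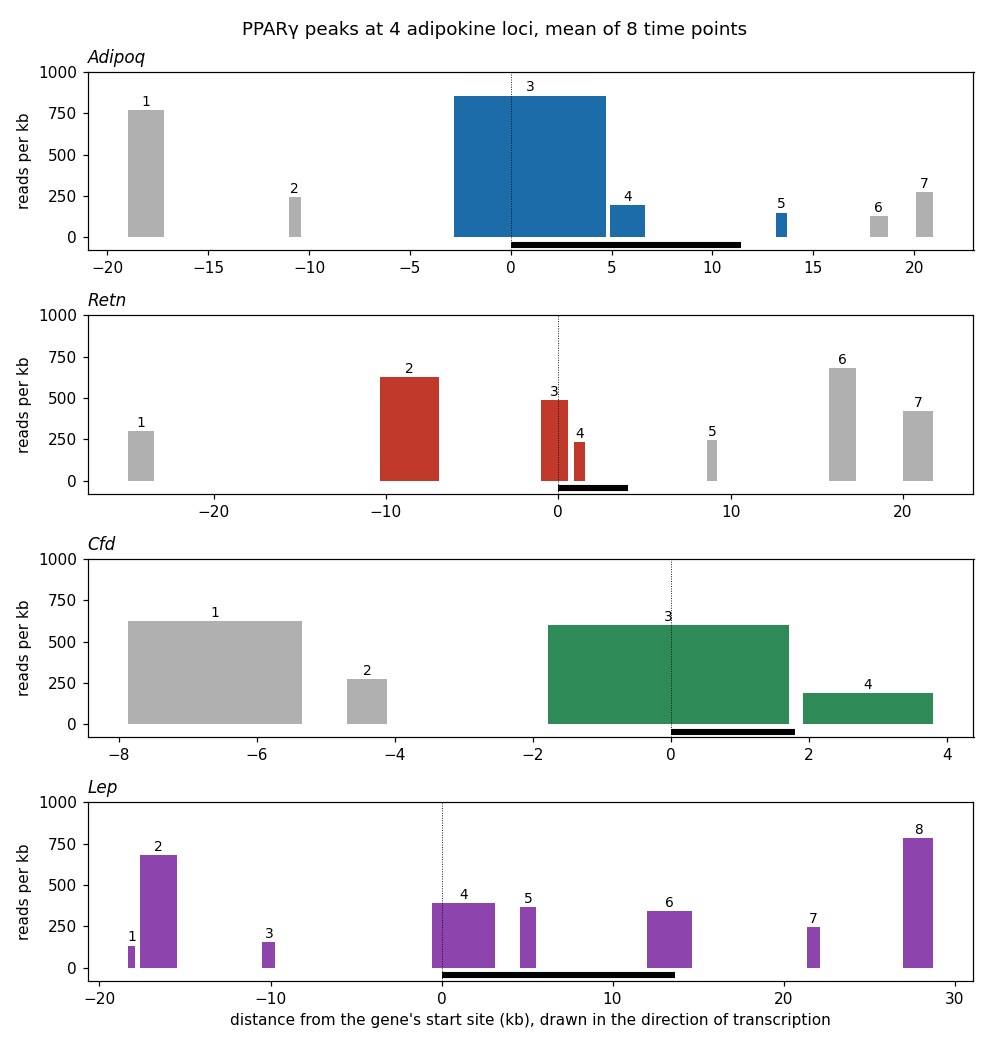
Position and strength of the 26 peaks. Bars show the mean normalized count per kb over 8 time points against the distance from the gene's start site in kb, the black line is the gene, coloured bars are nearest to the adipokine gene and grey bars to a neighbour. The Adipoq peak over the start site is the widest, and the Lep peaks with most reads per kb, 2 and 8, lie away from the gene.

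Peaks are numbered along the chromosome within each window, and all 4 genes lie on the plus strand. The Adipoq gene (chr16:23146536-23157968) has its start site inside peak 3 (chr16:23143735-23151256), which is 7522 bases long. The start site of Retn (chr8:3655770-3659818) lies in peak 3 (chr8:3654785-3656320), that of Cfd (chr10:79890853-79892655) in peak 3 (chr10:79889072-79892562) and that of Lep (chr6:29060221-29073876) in peak 4 (chr6:29059650-29063355). PPARγ reads were therefore counted over all 4 promoters, and the 100 bases before each start site are shown for this reason. They are from RefSeq (GRCm38.p6), on the plus strand, and capitals mark matches to CCAAT or TTGCNNAA, known as binding letters of NF-Y and of C/EBP proteins.
Adipoq: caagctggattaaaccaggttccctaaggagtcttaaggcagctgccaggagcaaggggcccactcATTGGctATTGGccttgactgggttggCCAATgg
Retn: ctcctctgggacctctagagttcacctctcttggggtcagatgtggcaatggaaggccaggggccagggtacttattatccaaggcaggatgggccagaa
Cfd: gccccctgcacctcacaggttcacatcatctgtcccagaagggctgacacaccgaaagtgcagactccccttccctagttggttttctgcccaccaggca
Lep: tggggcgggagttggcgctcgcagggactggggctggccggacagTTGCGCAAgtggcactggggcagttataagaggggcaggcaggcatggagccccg
CCAAT was found in 3 places before Adipoq, 34, 27 and 7 bases from the start site, and TTGCNNAA in 1 place before Lep, 55 bases from it, where it reads alike on both strands. Searched on both strands, CCAAT occurs in 18.9% of 32851 promoters over the same 100 bases and TTGCNNAA in 3.43%. AGGTCA, found in 5.88% of promoters, and TATAAA, in 5.56%, were in none of these 4 stretches. The motifs CCAAT and TTGCNNAA were added after the sequences had been seen.

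The sequence of each peak was scanned for DR1 elements (AGGTCANAGGTCA, either strand), with at most 2 mismatches among the 12 fixed bases. They were found in 8 of the 26 peaks and 23.6% of all peaks, and with at most 1 mismatch in 1 of the 26 and 4.99% of all. No peak of the 26 held an exact element, while 0.606% of all peaks did. Most of the 26 are longer than the median of all peaks (813 bases), and longer peaks held elements more often. These shares are not matched for length and are given as a description. The 10 elements are shown with 8 bases on each side, because they are the letters nearest to the known PPARγ site within these peaks, and capitals mark the element on its own strand.
Adipoq peak 1: tccactgtAGGGCAAAGGTTAgttgaacc
Adipoq peak 3: agggatagAGGTCAGGTGTCAatgtaaat
Cfd peak 1: agggaaggAGGTCACAAGCCAgccctgga
Lep peak 2: ctcttgttAGGTCAGATGTGAgctctcag
Lep peak 2: ctagtgggAAGTCAAAGGACAacttgaag
Lep peak 4: tttggtttAGGTGAAATGTCAgcacagac
Lep peak 8: gcttgtagAGGTCAGGGGACAtcttgaag
Retn peak 1: cggtacaaAGCTCAGAGGTCAggtacatc
Retn peak 2: taccaagaAAGCCACAGGTCAggaaaagg
Retn peak 2: atgcagacAAGTCACAGGCCAttaatccc
The element in Retn peak 1, at chr8:3632034-3632046, had 1 mismatch and the other 9 had 2. The element of Adipoq peak 3 lies at chr16:23143741-23143753, 3748 bases before the centre of that peak, and the start-site peaks of Retn and Cfd had none. Among peaks within 20% of the length of Adipoq peak 3, 76.7% held an element with at most 2 mismatches, and among those of the length of Cfd peak 3, 52.2%. The share of bases masked as repeats was from 0.236% in Lep peak 1 to 32.2% in Retn peak 5.

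Whether binding oscillated was assessed by JTK cycle. The ranks of the 8 values are set against 15 cosine templates, which differ in period (21 or 24 h) and in phase, and the best exact P value is corrected for these 15. Peaks with an adjusted P value under 0.05 were called. As a second test, a cosine of 24 h was fitted in edgeR (quasi-likelihood) and called at a Benjamini-Hochberg adjusted P value under 0.05 over all peaks. JTK cycle called 5 of the 26 peaks (19.2%), beside 11.6% of all 66066 peaks, and the cosine called 6 of the 26 (23.1%), beside 13.4% of all. With so few peaks, these shares are given as a description. Cfd peak 1 was called by both, 10 peaks by either and 16 by neither. No JTK call held after adjustment over all peaks: 0 of 66066 peaks reached a q value of 0.05, and the lowest of the exact test was 0.0968, while the q value of the 5 called peaks was from 0.128 to 0.224.

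The number of JTK calls also depends on how equal values of a cosine template are ordered, a choice that was not settled before the peaks had been tested. Under 32 rules for this, which gave 11 different counts over all peaks, between 3 and 13 of the 26 peaks and between 2164 and 18715 of all peaks were called. The highest counts, 13 and 18715 (28.3% of all peaks), came from counting equal values as agreement. Retn peak 1 and Lep peak 2 were called under all 32 rules, Retn peak 2 under 30, Adipoq peak 3 under 28, Cfd peak 1 under 13 and Retn peak 7 under 3. Another 7 peaks (Adipoq peaks 1, 6 and 7, Retn peak 4, Cfd peaks 2 and 3 and Lep peak 7) were called under the agreement rule and no other of the 32.

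**Figure D2:**
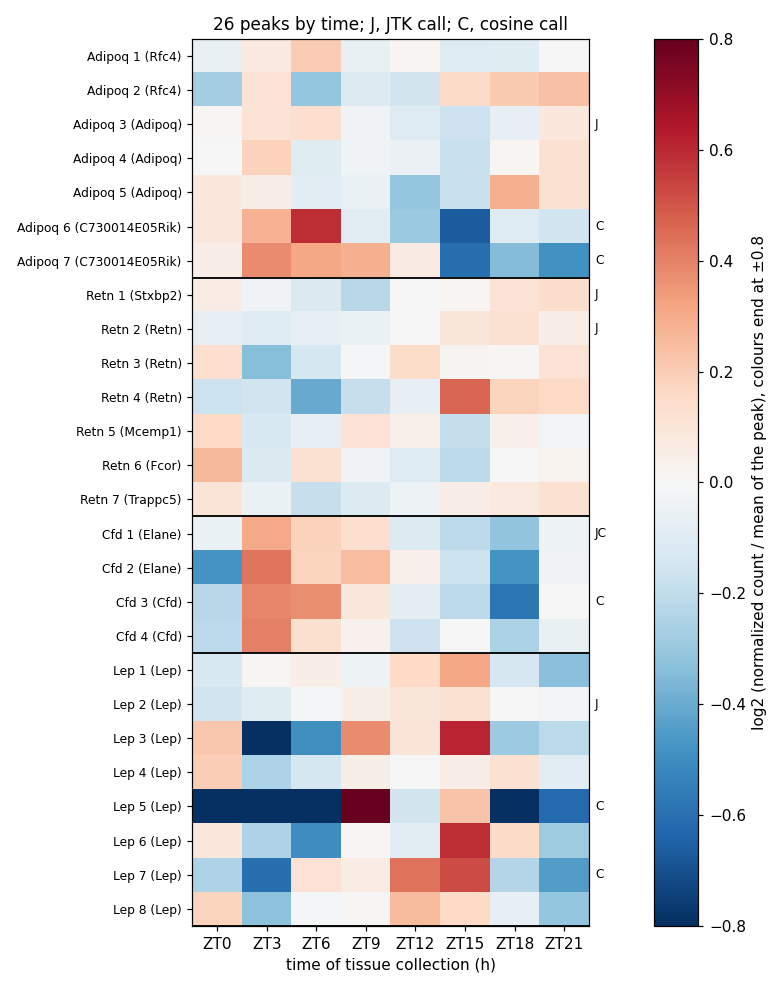
All 26 peaks (rows, with the nearest gene in brackets) at 8 time points (columns). Colours give the log2 ratio of the normalized count to the mean of the peak and end at 0.8 in either direction, and J and C mark JTK and cosine calls. Adipoq and Cfd peaks with a call are high at ZT3 and ZT6, Lep peaks 3, 6 and 7 are highest at ZT15, and Lep peak 5 stands out at ZT9.

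At Adipoq, the peak over the gene's start was the strongest of all 26, and it was highest in the light phase. Adipoq peak 3 had normalized counts of 6483, 6960.2, 7061 and 6316 in the light phase and 5987, 5732, 6150.4 and 6836 in the dark phase. The highest value, at ZT6 (6901 to 7225), was 1.23 times the lowest, at ZT15 (5589 to 5880.1). They were picked as the extremes, so that these intervals do not overlap is no test of a change. The mean, 6441, was above that of 99.8% of all peaks. JTK cycle called it (adjusted P = 0.00595, exact, LAG 4.5 h with a period of 21 h, where the LAG is the time from ZT0 to the estimated maximum). The cosine did not (edgeR adjusted P = 0.0816, log2 amplitude 0.13 ± 0.04 SE). Of peaks with a mean within 0.8 to 1.25 times its own, 15.2% had a smaller or equal ratio of highest to lowest, so its change over the day was small for its strength.

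The distal peaks downstream of Adipoq changed more. Adipoq peaks 6 (chr16:23164325-23165242) and 7 (chr16:23166622-23167482) are intergenic and nearest to C730014E05Rik, an uncharacterized gene. Peak 6 had normalized counts of 127, 145, 179.7 and 112 in the light phase and 97, 75.2, 111 and 107 in the dark phase. Peak 7 had 246, 308, 294 and 289 in the light phase and 248, 156, 186 and 169.6 in the dark phase. Both were lowest at ZT15, with a ratio of highest to lowest of 2.39 and 1.97. Weaker peaks spread more, and of peaks of like mean 92.2% and 86.3% had a smaller or equal ratio. The cosine was called for peak 6 (edgeR adjusted P = 0.0353, log2 amplitude 0.43 ± 0.11 SE, maximum at 3.73 h) and for peak 7 (edgeR adjusted P = 0.00843, 0.47 ± 0.08 SE, 5.73 h). JTK cycle called neither (exact adjusted P = 0.0826 and 0.212), but it did call peak 6 with a period of 24 h only (exact adjusted P = 0.044) and without ZT18 or ZT21 (0.0417 in both). Over the settings tried, peak 7 kept its cosine call (edgeR or DESeq2 adjusted P from 0.000269 to 0.0348), while peak 6 lost it in 5 of 13 (edgeR adjusted P from 0.0513 to 0.171 in those).

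The other 4 peaks in the Adipoq window passed neither test, though JTK cycle called peak 1 without ZT9 and without ZT12. Peak 1 (chr16:23127555-23129342), over the start of Rfc4, a subunit of replication factor C, had 1318, 1447, 1581 and 1319 in the light phase and 1391, 1279, 1284 and 1372 in the dark phase. Peak 2, also nearest to Rfc4, had 114, 149, 111 and 128 in the light phase and 125, 153, 159 and 162 in the dark phase. These were highest at ZT6 and at ZT21, so neighbouring peaks did not share their order. Peak 4, in intron 1 of Adipoq, had 338, 385, 317 and 333 in the light phase and 329, 300.0, 344 and 369 in the dark phase. Peak 5, downstream of the gene, had 85.8, 83.7, 76.3 and 77.8 in the light phase and 65.4, 71.4, 98.3 and 87.9 in the dark phase. The ratio of highest to lowest was from 1.24 to 1.50 in these 4 peaks. Summed over the 3 peaks nearest to Adipoq, the normalized count was highest at ZT6 (7454) and lowest at ZT15 (6104).

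At Retn, JTK cycle called 2 of the 7 peaks of the window (beside 11.6% of all peaks) and the cosine 0 (beside 13.4%), a number of peaks too small to read a share from. The strongest peak, peak 2 (chr8:3645414-3648872), lies upstream with its centre 8627 bases before the start site. It had 2079, 2022, 2078 and 2094 in the light phase and 2178, 2326, 2369 and 2258 in the dark phase. Values from ZT15 to ZT21 were the highest, and the ratio of highest to lowest was 1.17. JTK cycle called it (exact adjusted P = 0.026, LAG 16.5 h) and the cosine did not (edgeR adjusted P = 0.167, log2 amplitude 0.11 ± 0.04 SE). With upper-quartile factors the JTK call was lost (exact adjusted P = 0.0826), and with library totals only the cosine called the peak (edgeR adjusted P = 0.0404).

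Peak 3, over the Retn start site, had 819, 590.0, 675 and 739.6 in the light phase and 826, 757, 752 and 806 in the dark phase. The value at ZT3 (545 to 638) was below all others. Neither test called it (exact JTK adjusted P = 1, edgeR cosine adjusted P = 0.375). Peak 4, in intron 3 of Retn, had 135, 136, 115 and 134 in the light phase and 145, 210.3, 172 and 169.6 in the dark phase, with the highest value at ZT15, and passed neither test (exact JTK adjusted P = 0.0826, edgeR cosine adjusted P = 0.0549). Both tests called it under some alternatives, among them JTK cycle with library totals only and with a period of 24 h, and the cosine with library totals only and among peaks with a mean count of at least 100.

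The other peaks of the Retn window are nearest to neighbours. Peak 1 (chr8:3630808-3632291) covers the start of Stxbp2, which acts in the fusion of secretory granules, and had 466, 439, 412 and 383 in the light phase and 446, 452, 482 and 492 in the dark phase. It was lowest at ZT9 and highest at ZT21, and JTK cycle called it (exact adjusted P = 0.00595, LAG 21 h), while the cosine did not (edgeR adjusted P = 0.212). Peak 5, nearest to Mcemp1, had 156, 128, 133 and 152 in the light phase and 144, 123, 144 and 138 in the dark phase. Peak 6, over Fcor, which encodes a corepressor of FOXO1 in adipocytes, had 1290.0, 994, 1174 and 1056 in the light phase and 1002, 931, 1078 and 1099 in the dark phase. Peak 7, over Trappc5, a subunit of a vesicle tethering complex, had 803, 718, 656 and 692 in the light phase and 726, 775, 788 and 813 in the dark phase. None of these last 3 passed a test, and their ratio of highest to lowest was from 1.24 to 1.39. JTK cycle did call peak 7 with library totals only, with a period of 24 h only and without ZT0 or ZT18, and peak 6 without ZT3.

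**Figure D3:**
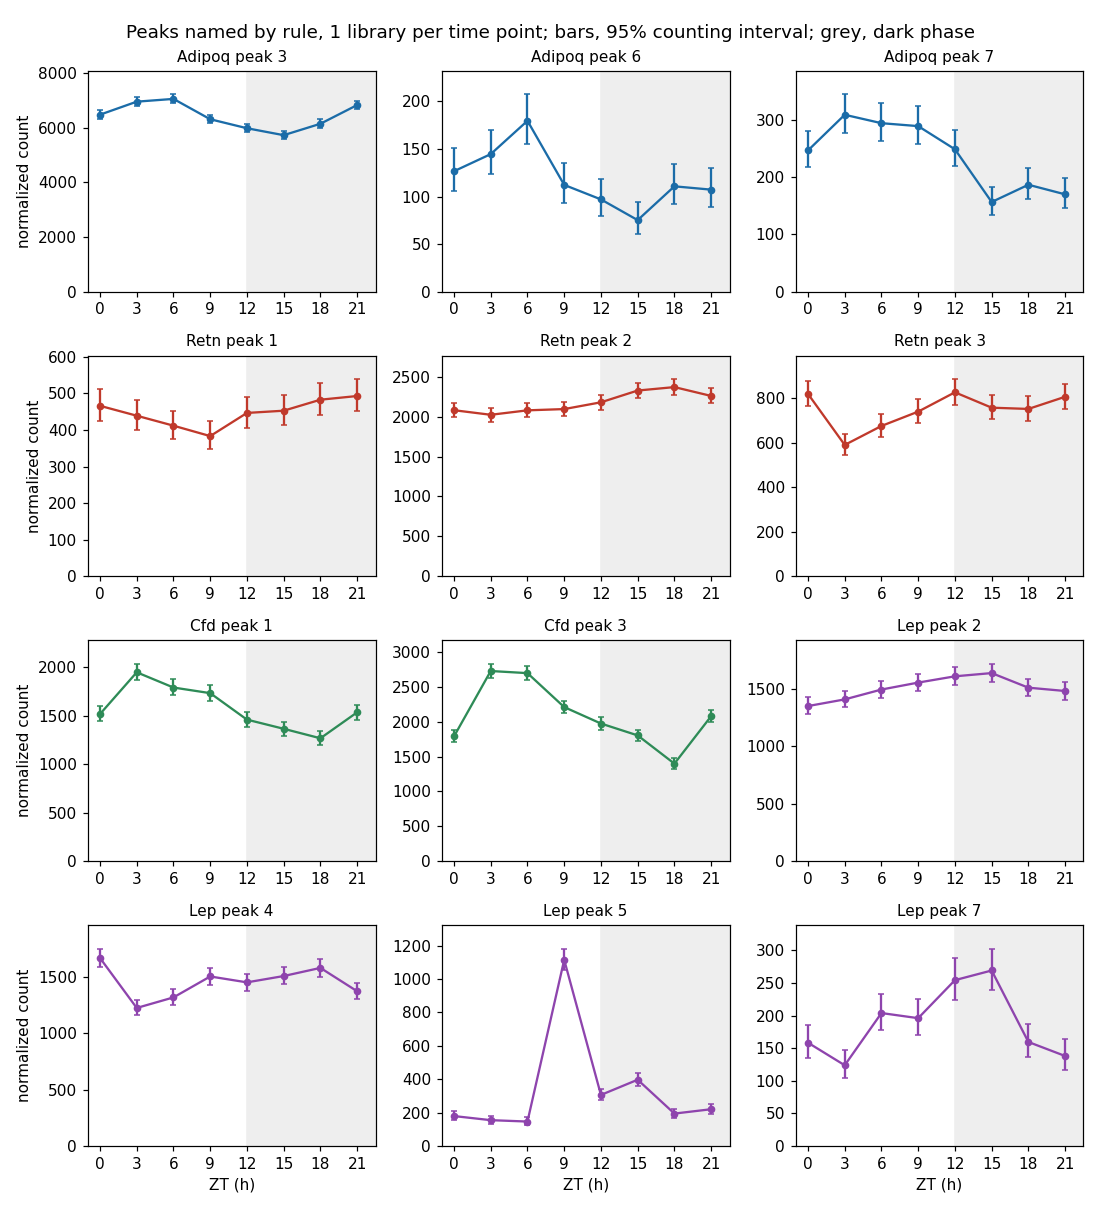
Normalized counts (vertical axes, starting at 0) of the 12 peaks named by rule against the time of collection in h, with 1 library per point, 95% counting intervals and the dark phase in grey. Cfd peaks 1 and 3 are highest at ZT3 and lowest at ZT18, Adipoq peak 3 changes little for its level, and Lep peak 5 has a single high value at ZT9.

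At Cfd, all 4 peaks were highest at ZT3 and lowest at ZT18, and the strongest was 1.95 times as high at ZT3 as at ZT18. Some of these extremes are near-ties within counting error. Peak 2 had 114 at both ZT0 and ZT18, and peak 3 had 2727 at ZT3 and 2697 at ZT6. Peak 3 (chr10:79889072-79892562), over the start site, had 1789, 2727, 2697 and 2209.8 in the light phase and 1974, 1804, 1399 and 2079 in the dark phase. The highest value (2629 to 2829) was 1.95 times the lowest (1326 to 1475), a ratio above that of 98.4% of peaks of like mean. The cosine called it (edgeR adjusted P = 0.012, log2 amplitude 0.36 ± 0.07 SE, maximum at 5.32 h). JTK cycle did not (exact adjusted P = 0.212), though it called it without ZT0 (exact adjusted P = 0.0417) and with equal values counted as agreement (0.026). Without ZT6 or without ZT18, the cosine call was lost (edgeR adjusted P = 0.0511 and 0.0915).

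Peak 1 (chr10:79882982-79885499), which lies upstream and nearest to Elane, the gene of neutrophil elastase, had 1516, 1946, 1789 and 1731 in the light phase and 1458, 1364, 1266 and 1534 in the dark phase. Its ratio of highest to lowest was 1.54. The cosine called it (edgeR adjusted P = 0.0114, log2 amplitude 0.26 ± 0.05 SE, maximum at 4.86 h), and lost it without ZT18 (edgeR adjusted P = 0.0853). JTK cycle called it as well (exact adjusted P = 0.026, LAG 6 h), but not when equal template values were kept as ties or ordered by later time, with cyclic loess, or without ZT9 or ZT12 (exact adjusted P from 0.0826 to 0.161).

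Peak 2, over the start of Elane, had 114, 213, 179.7 and 188 in the light phase and 163, 141, 114 and 155 in the dark phase. Peak 4, just downstream of Cfd, had 312, 477, 394 and 368 in the light phase and 321, 359.8, 302 and 345 in the dark phase. Neither passed a test (exact JTK adjusted P = 0.212 and 0.915, edgeR cosine adjusted P = 0.114 and 0.228), and JTK cycle called peak 2 without ZT3. Summed over the 4 peaks, the normalized count was 5363 at ZT3 and 3081 at ZT18, a ratio of 1.74. Pearson's r of log2 normalized counts between the 6 pairs of Cfd peaks had a median of 0.85 over the 8 libraries, with a lowest of 0.84. The medians were 0.36 at Adipoq (21 pairs), 0.39 at Retn (21 pairs) and 0.50 at Lep (28 pairs), and 0.39 over all 45594 adjacent pairs whose centres lie within 20 kb. These pairs share the same libraries, and neighbouring peaks may share fragments.

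At Lep, all 8 peaks are nearest to the gene itself. The strongest, peak 2 (chr6:29042569-29044777), has its centre 16548 bases upstream and had 1352, 1410.3, 1496 and 1557 in the light phase and 1612, 1639.8, 1512 and 1484 in the dark phase. It rose from ZT0 to ZT15 with no step down between, and the ratio of highest to lowest was 1.21. JTK cycle called it (exact adjusted P = 0.00595, LAG 13.5 h), and the cosine did not (edgeR adjusted P = 0.162, log2 amplitude 0.12 ± 0.04 SE). Its JTK call held in each of the 18 alternatives tried (exact adjusted P from 0.000744 to 0.0417).

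Peak 4, over the Lep start site and intron 1, had 1671, 1227, 1320.5 and 1507 in the light phase and 1454, 1511, 1583 and 1375 in the dark phase. It was highest at ZT0 and lowest at ZT3, which are neighbouring time points, and passed neither test (exact JTK adjusted P = 1, edgeR cosine adjusted P = 0.494). Peak 8 (chr6:29087200-29088972), downstream of the gene, had 1574, 1108, 1379 and 1397 in the light phase and 1652, 1552, 1325 and 1119 in the dark phase. It had the most reads per kb of the Lep peaks (783) and passed neither test (exact JTK adjusted P = 0.467, edgeR cosine adjusted P = 0.337). Both tests called peak 8 without ZT0.

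Peak 5 (chr6:29064812-29065735), in intron 1 of Lep, differed from the others by 1 value. It had 179, 154, 146 and 1115 in the light phase and 305, 396, 194 and 219.7 in the dark phase. The value at ZT9 (1052 to 1182) rests on 1132 reads and was 2.81 times the next highest, that of ZT15 (359.9 to 437). It was 1 of 6 among all 66066 peaks whose highest value lay at least as far above the next, of which 2 were highest at ZT9 and 4 at ZT21. The neighbouring peaks 4 and 6 had 1507 and 897 at ZT9, within their range at other times. The cosine called peak 5 (edgeR adjusted P = 0.0406, log2 amplitude 1.03 ± 0.28 SE), but not without ZT0, ZT15 or ZT18 (edgeR adjusted P = 0.0613, 0.0837 and 0.0964) and not by DESeq2's likelihood ratio test (adjusted P = 0.169). Without ZT9 itself the cosine call was kept (edgeR adjusted P = 0.0241). JTK cycle, which uses ranks, did not call it (exact adjusted P = 0.915). Without its highest value, the ratio of highest to lowest fell from 7.64 to 2.72.

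Peak 7 (chr6:29081580-29082346), downstream of Lep, had 158, 124, 204 and 196 in the light phase and 254, 269, 159 and 138 in the dark phase. It was highest at ZT12 and ZT15, and the cosine called it (edgeR adjusted P = 0.0233, log2 amplitude 0.46 ± 0.10 SE, maximum at 12.2 h). JTK cycle did not (exact adjusted P = 0.0826), though it called it without ZT6 (exact adjusted P = 0.0417) and with equal values counted as agreement (0.026). Without ZT12 or ZT15 the cosine call was lost (edgeR adjusted P = 0.0821 and 0.0792). Peak 6, over exon 3 of Lep, had 949.8, 752, 634 and 897 in the light phase and 841, 1344, 995 and 733 in the dark phase. Peak 3, upstream, had 134, 63.8, 82.1 and 149.7 in the light phase and 124, 176, 94.2 and 99.1 in the dark phase, and peak 1, the weakest of the 26, had 52.1, 57.1, 58.9 and 55.1 in the light phase and 63.3, 70.4, 51.8 and 45 in the dark phase. These 3 peaks were highest at ZT15, and none passed a test (exact JTK adjusted P = 0.212, 0.467 and 0.915, edgeR cosine adjusted P = 0.085, 0.224 and 0.483). The cosine did call peak 6 without ZT0, without ZT21 and by DESeq2's likelihood ratio test, and peak 3 without ZT0. Summed over the 8 peaks, the count was highest at ZT15 (6957) and lowest at ZT3 (4895), and without peak 5 it was 6561 and 4741 at the same times.

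**Figure D4:**
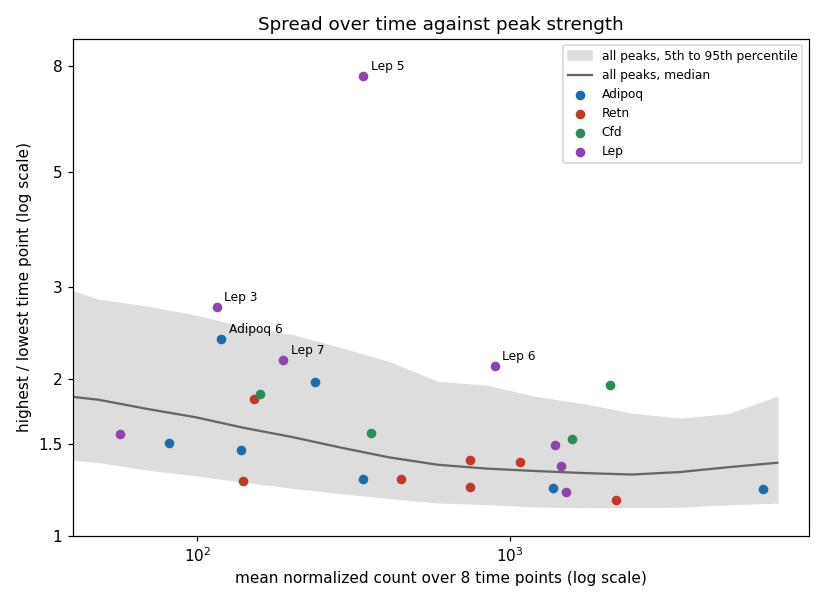
Ratio of the highest to the lowest time point against the mean normalized count, both on log scales, for the 26 peaks (points), with the median and the 5th to 95th percentile of all peaks. Weak peaks spread more, and Lep peaks 3, 5 and 6 and Cfd peak 3 lie above the grey band.

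The ratio of highest to lowest had a median of 1.50 over the 26 peaks and 1.52 over all peaks. Set against peaks of like mean, 15 of the 26 had a ratio above the middle. Lep peak 5 (99.98th percentile), Cfd peak 3 (98.4th), Lep peak 6 (97.4th) and Lep peak 3 (96.6th) were the furthest up, and Retn peak 5 (5.24th) the furthest down.

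For the strongest peak of each gene, the peaks with the most similar time course were found by Pearson's r of log2 normalized counts over the 8 libraries, among peaks with a mean of at least 100 outside the window. For Adipoq peak 3, these were peaks nearest to Snx33 (r = 0.99), Klb (0.99) and Tnfrsf11a (0.99), among 52057 peaks. Retn peak 2 was closest to peaks near Cabcoco1 (1.00), Meltf (0.98) and Ets1 (0.98). Cfd peak 3 was closest to Otulin (0.99), Fat1 (0.99) and Hcn2 (0.99). Lep peak 2 was closest to Agmo (0.99), Sycp3 (0.99) and 4930429B21Rik (0.98). With 8 values and that many candidates, high r values can occur by chance, and how often they do for other time courses was not tested.

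Other genes of the adipokine pathways were taken as a list of 33. Of these, 25 had a peak nearest to them, with 116 peaks in all, of which JTK cycle called 15 (12.9%, beside 11.6% of all peaks) and the cosine 25 (21.6%, beside 13.4%). Many of these calls lie at Cdh13 (5 by JTK cycle and 7 by the cosine) and C1qtnf3 (3 and 5). The shares are thus no result about the list as a whole. The median ratio of highest to lowest was 1.54 in the list and 1.52 over all peaks. Of the receptors, Cdh13, which encodes T-cadherin, a binding partner of adiponectin, had 17 peaks, of which 5 were called by JTK cycle and 7 by the cosine. The 7 peaks were highest at ZT3, ZT6 or ZT9, and their centres lie from 66842 to 273083 bases from the start site, on either side. That with the lowest cosine P value, picked after the values were seen, was chr8:118393636-118394798. It went from 199.7 at ZT15 to 468.5 at ZT6 (edgeR cosine adjusted P = 0.00167). Adipor2, an adiponectin receptor, had 15 peaks, of which 2 were called by the cosine (beside 13.4% of all peaks) and 0 by JTK cycle (beside 11.6%). Both called peaks were highest at ZT6, but calls this few are no more than the shares over all peaks and no result about this gene. Adipor1 had 1 peak, which was not called, and Lepr, the leptin receptor, had 0 peaks.

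Among genes of adiponectin secretion and of leptin signalling, JTK cycle called the 1 peak of Ero1a (an oxidase of the endoplasmic reticulum) and 1 of the 8 of Socs3 (an inhibitor of leptin signalling), and the cosine called 1 of the 8 of Jak2 and 1 of the 4 of Stat3. Over all peaks, 11.6% and 13.4% were called by these tests, so single calls in genes with several peaks are no result about these genes. The Ero1a peak was highest at ZT18 and the Socs3 peak at ZT0. Among complement genes, 1 of 2 C3 peaks was called by the cosine and was highest at ZT6. So were the called peaks of Nucb2, the gene of nesfatin (1 of 2, by the cosine), and Igfbp3 (1 of 13, by both tests). Cfb, C3ar1 and C5ar1 had 0 peaks. C1qtnf3, a paralogue of adiponectin, had 6 peaks, of which 3 were called by JTK cycle (beside 11.6% of all peaks) and 5 by the cosine (beside 13.4%). The called peaks of this gene, singled out of the list after its values were seen, were highest at ZT12 or ZT15. The peak chr15:10921082-10922841 went from 688 at ZT3 to 1339 at ZT12 (edgeR cosine adjusted P = 0.000516). Metrnl, a secreted protein of brown fat, had 2 of 5 peaks called by both tests, and both were highest at ZT12. The cosine called 1 of 4 peaks of C1qtnf6, highest at ZT6, and 1 of 5 of C1qtnf1, highest at ZT9. The 1 peak of C1qtnf12 was called by both tests and was highest at ZT3. Beside 11.6% and 13.4% of all peaks, calls this few are no result about these genes.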

How the data were processed

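PPARγ ChIP-sequencing of pooled mouse iBAT, with 1 library at each of 8 time points, was analysed. The authors mapped the reads to mm10 with BWA (0.7.17 per the submitters' processing notes), called peaks with MACS2 (2.1.2), kept those found in most of the libraries, and used HTSeq (1.99.2) to count the reads of each peak. The deposited values are raw counts (whole numbers, not normalized). How duplicate reads were handled is not given in the sources used here. The depth is known only as reads in peaks, 29572225 to 34264812 per library.

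TMM factors and the 24-h cosine (glmQLFit and glmQLFTest, 5 residual degrees of freedom, Benjamini-Hochberg over all 66066 peaks) came from edgeR 4.0.16 in R 4.3.3. As no time point was replicated, departures from the cosine served as the spread, and all P values rest on these 8 libraries, by their order in JTK cycle and by the size of their counts in the cosine. JTK cycle was written in Python 3.11.15 with the exact null distribution, templates of 21 and 24 h, and P values multiplied by the 15 templates tried within a peak, with no correction over peaks. Standard errors of amplitudes are from the fitted model. Peaks were assigned to the nearest curated RefSeq start site of GRCm38.p6 and placed by their centre. Like length means within 20%, and like mean 0.8 to 1.25 times.

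Many cosine templates have equal values at these times, and how they are ordered was not fixed before testing. The first version kept them as ties and was run on the 26 peaks, with 4 calls (Adipoq peak 3, Retn peaks 1 and 2 and Lep peak 2). Other orders were then compared with the P values of the supplementary table of the paper, in 32 rules that are tabulated and in further variants that are not, such as other rounding of the templates and a search template by template. From this comparison, which is not tabulated here, 1 rule was kept. It was kept because its P values for single peaks were judged closest to those of the table. This rule adds 1e-06 to the phase angle of a template, which moves its maximum earlier. Where values are still equal, it puts the earlier time first, and it gives 5 calls. The kept rule called 7686 of all peaks, while other rules, with 8428, came closer to the number of oscillating peaks that the paper reports. The choice was thus made after results were known, and JTK calls should be read with the range over rules.

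Both tests were tried on simulated counts of 5000 peaks, 200 of them oscillating by 0.5 of their mean, drawn with dispersion 0.01. JTK cycle with the rule kept recovered 164 (82.0%) and called 88 flat peaks (1.83%), with ties kept and rounded up it recovered 148 and called 58, and with equal values counted as agreement it recovered 196 and called 345 (7.19%). The cosine recovered 200 and called 6 flat peaks. The JTK amplitudes of the 5 called peaks were smaller, from 6.80% of the level of the peak (Lep peak 2) to 16.1% (Cfd peak 1). Recovery at such amplitudes was not tested.

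The members, windows and gene lists were chosen with earlier results of these data known. Of the pathway genes with a called peak, 1 is counted in the totals but not reported here by name. Named by rule, with all their values, were each gene's strongest peak, the peak nearest its start site and every peak called by a test, and values of the other peaks are given beside them. Alternatives were library totals only, DESeq2 1.42.0 size factors and its likelihood ratio test, upper-quartile factors, cyclic loess (limma 3.58.1), a period of 24 h only, stricter thresholds, filters on low counts, each library left out and, added after the data were seen, other orders of equal template values. The input library and the RNA-sequencing of the paper were not analysed here.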

Additional observations from a re-analysis of the deposited data

Results flagged for a closer look

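In Lep peak 5, in intron 1 of the gene, the library of ZT9 stood apart from the other 7. Its gap to the next highest value was 0.741 of the whole range, above Dixon's critical value of 0.526 for 8 values, and it was the only 1 of the 26 peaks examined. About 1 in 20 sets of values passes this limit by chance, and the libraries are different time points rather than replicates. Whether ZT9 differed in biology or in preparation was not tested, as no second ZT9 library was analysed.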

How the results depend on the processing

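JTK cycle called 5 of the 26 peaks (11.6% of all peaks). It called 8 with a period of 24 h only (15.0% of all), 3 at an adjusted P value under 0.01 (4.66%), 3 with equal template values kept as ties and rounded down (3.28%), and 13 with equal values counted as agreement (28.3%). Leaving out 1 library in turn gave from 5 to 9 calls, 9 without ZT0 (8606 of all peaks) and 8 without ZT3 (10802 of all). With the other normalizations it called from 4 to 7, and over 32 orders of equal values from 3 to 13. With ties kept and rounded up, the version run first, it called 4 of the 26 and 5708 of all peaks. Cfd peak 1, Adipoq peak 3 and Retn peak 2 each lost their call under some orders of equal values. Lep peak 2 and Retn peak 1 kept their JTK calls in all 18 alternatives tried for single peaks.

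The cosine called 6 peaks (13.4% of all), 1 at an adjusted P value under 0.01 (3.40%), and from 3 to 8 with 1 library left out. It called 3 without ZT15 (5.65% of all) and 3 without ZT18 (4.64%). For the 33 pathway genes, JTK cycle called 15 peaks (beside 11.6% of all) and 28 with a period of 24 h only (15.0%). It called 5 with ties kept and rounded down (3.28%) and 39 with equal values counted as agreement (28.3%). With 1 library left out, it called from 12 (without ZT9, beside 13.3% of all) to 21 (without ZT3, beside 16.4%). By nearest start site, 3, 3, 2 and 8 peaks belong to Adipoq, Retn, Cfd and Lep. With at most 1 mismatch, 1 DR1 element remained of 10. No paired analysis was possible because each time point has 1 library. The cause of these shifts was not tested, and with 1 library per time point the counting intervals do not cover the spread between pools.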
